A study of Homo sapiens with 372 samples.

Results

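The 61 single A2780 cells retained after 16 h of celecoxib were split by how much mitotic RNA each still held. Of the 338 cells in the series, 30 celecoxib 16 h cells made up a high-score group and 31 a low-score group. The score of a cell was the mean E-value of CDC20, CCNB1, UBE2C, AURKB and PTTG1 after every cell had been set to the same total, and cells above the median of the 61 were called high. The groups were therefore chosen by measured values of the cells that are compared, and the levels of these 5 genes are given only as a description.

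A2780 is a cell line from a human ovarian adenocarcinoma, and no transgene or deletion is named for any group. Untreated control cells (46), cells given 5 nM paclitaxel for 16 h (56) or 48 h (53), cells given 75 µM celecoxib for 2 h (63) or 16 h (61), and cells given both drugs at these doses for 16 h (59) were captured on the Fluidigm C1 system and sequenced by Smart-seq2, which copies full-length polyA RNA. Celecoxib inhibits cyclooxygenases, the enzymes that begin prostaglandin synthesis, and paclitaxel stabilizes microtubules. The descriptions of the cells give each condition a code of its own and name no replicate culture, so that a condition counts as 1 sample, its cells are not replicates, and no p-value or SE was made from them. SD values below are spreads over cells.

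In a dividing cell the transcripts for DNA replication build up as the cell passes from G1 into S phase, and those for spindle assembly and chromosome segregation build up in G2 and peak in mitosis. E2F factors switch on many of the replication genes. The mitotic genes are held down in resting cells by the DREAM complex, which binds a short element called the cell cycle homology region, and are switched on later through the same element and nearby CCAAT boxes bound by NF-Y. Most of the mitotic transcripts and proteins are removed again at the end of division, so that a cell with few of them may be in G1, in early S phase or out of the cycle.

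The promoters of 3 mitotic genes and 1 replication gene show what these elements look like. They are printed because CDC20 is a score gene, CCNB2 had the largest difference between the groups, MKI67 is the common proliferation marker, and PCNA stands for the replication genes. Each line gives the 150 bases before the RefSeq start (GRCh38.p14), 5′ to 3′ on the strand of the gene, with TTTGAA (cell cycle homology region), CCAAT (NF-Y) and GGCGGGAA (E2F), found on either strand, in capitals. The windows are chr1:43358831-43358980 (+) for CDC20, chr15:59104996-59105145 (+) for CCNB2, chr10:128126424-128126573 (-) for MKI67 and chr20:5126623-5126772 (-) for PCNA.
CDC20: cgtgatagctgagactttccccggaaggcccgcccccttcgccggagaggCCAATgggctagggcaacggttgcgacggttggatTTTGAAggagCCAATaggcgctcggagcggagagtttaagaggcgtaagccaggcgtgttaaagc
CCNB2: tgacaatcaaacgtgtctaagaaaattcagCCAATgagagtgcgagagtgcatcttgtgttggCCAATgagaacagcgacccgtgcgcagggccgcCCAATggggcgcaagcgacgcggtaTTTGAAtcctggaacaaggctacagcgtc
MKI67: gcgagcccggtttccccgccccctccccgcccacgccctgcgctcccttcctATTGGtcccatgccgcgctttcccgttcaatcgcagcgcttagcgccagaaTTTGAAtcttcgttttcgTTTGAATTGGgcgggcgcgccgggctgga
PCNA: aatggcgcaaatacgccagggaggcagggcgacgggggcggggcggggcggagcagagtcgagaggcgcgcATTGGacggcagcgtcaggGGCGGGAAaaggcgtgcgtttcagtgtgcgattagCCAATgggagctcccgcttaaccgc
The 3 mitotic promoters hold TTTGAA beside CCAAT, and that of PCNA holds CCAAT and GGCGGGAA without TTTGAA. The promoters of CCNB1, AURKB and PTTG1, the other score genes with an entry, hold CCAAT and no TTTGAA or GGCGGGAA in the RefSeq window. In MKI67 the last TTTGAA shares bases with a CCAAT on the other strand.

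The score ran without a break through the cut. Over the 61 cells it went from 0 through a median of 2.15 to 7.45 (mean 2.53 ± 2.05, SD over cells). In control cells it went from 0.75 through 5.63 to 6.86 (5.09 ± 1.53). The last cells called low had scores of 2.05 and 2.15 and the first called high 2.31 and 2.33, and 11 cells lay within 0.5 of the cut. The widest step between neighbouring cells was 0.865, between 3.69 and 4.55, with 11 cells above it. High and low are thus ranges of a continuous score and not cell types.

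**Figure D1:**
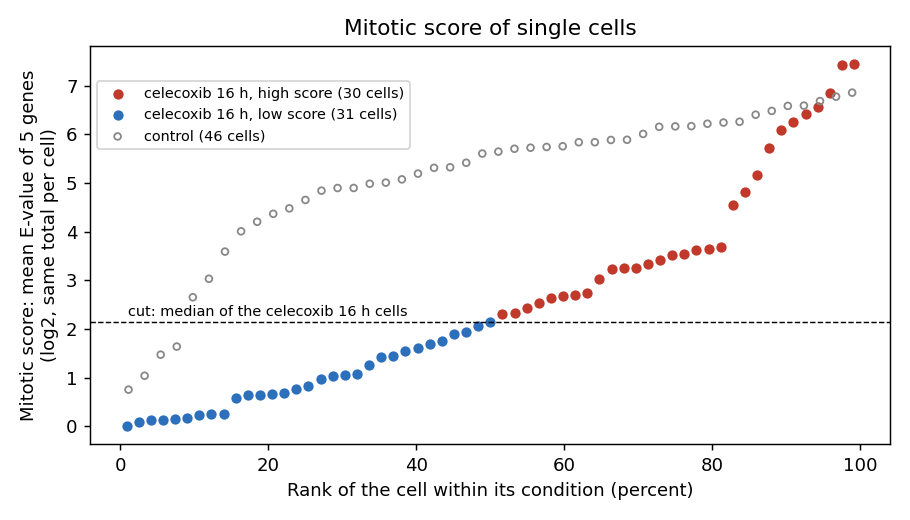
Mitotic score (y axis, mean E-value of 5 genes on a log2 scale at the same total per cell) against the rank of each cell within its condition (x axis, percent). Red and blue points are the 30 high-score and 31 low-score celecoxib 16 h cells, open circles the 46 control cells, and the dashed line is the cut at 2.15. Most celecoxib 16 h cells lie below the control cells of the same rank, and 8 of the 61 are above the control median of 5.63.

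Few celecoxib 16 h cells had the score of a typical control cell. Of the 61 cells, 8 were above the control median (13.1%, exact Clopper-Pearson 95% interval 5.84 to 24.2%, for counting error only). The number was 7 of 59 with the combination, 10 of 56 and 11 of 53 after 16 and 48 h of paclitaxel, and 14 of 63 after 2 h of celecoxib. All 5 score genes were detected (E-value above 0) in 17 of the 61 cells and in 38 of the 46 control cells. CDC20, which activates the anaphase-promoting complex, was detected in 27 of 30 high-score and 13 of 31 low-score cells, with means of 4.13 ± 2.08 and 0.76 ± 1.25 and 4.65 in the control cells. AURKB, the kinase of the chromosomal passenger complex, was detected in 20 of 30 and 4 of 31 cells, with means of 2.58 ± 2.30 and 0.08 ± 0.26. UBE2C, the ubiquitin-conjugating enzyme of the anaphase-promoting complex, had means of 5.08 and 1.19. CCNB1, the cyclin B1 that drives entry into mitosis, had 4.72 and 1.80, and PTTG1, the securin that holds back separase, had 4.36 and 0.85. In the high-score cells the means of CDC20, UBE2C and PTTG1 were within 1 log2 unit of the control means at the same total per cell. Those of CCNB1 and AURKB were lower by 1.04 and 1.95. Setting the same total raised the high-score cells, whose median log2 transcript total was -1.29 with the control median at 0. Nearness to the control means therefore holds for shares of the total, and amounts per cell were not compared.

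High-score cells also held somewhat more RNA. The number of genes detected per cell, which stands in for depth because the reads per cell are unknown here, went from 5367 through a median of 6532 to 7084 in the high-score and from 5021 through 6022 to 6894 in the low-score cells. The log2 transcript total on the spike-in scale, with the control median at 0, had medians of -1.29 and -1.60. The ranges of both measures overlapped almost wholly, and over the 61 cells the score had Pearson's r of 0.30 (Spearman's rho 0.32) with the genes detected and 0.26 (0.31) with the total. The genes below were compared at the same total per cell, and counts from differences within bins of both measures are given beside them. What part of the differences goes with depth and RNA amount was not tested.

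Outside the 5 score genes, high-score cells had higher levels of mitotic and replication genes, while G1 regulators and most stress and metabolism lists had medians near 0. Of the 8475 genes that were detected in 30% or more of these 61 cells, 587 (6.93%) were higher by over log2 of 1.5 in mean E-value and 269 (3.17%) lower by as much. When differences were taken within bins of genes detected and then averaged, 512 genes were higher and 381 lower. Within bins of the transcript total, 501 were higher and 372 lower. Higher genes then made up 57.3% and 57.4% of those past the limit, against 68.6% in the main result. The median difference of all genes was 0.02 and the largest 2.90. On the deposited spike-in scale, 464 genes were higher and 66 lower, so that higher genes made up 87.5% of those past the limit in place of 68.6%, and 433 and 66 of them were also past it at the same total. Genes of 9 cell cycle lists made up 138 of the 587 higher genes (23.5%) and 200 of the 8475 genes (2.36%). These 9 lists cover S phase, replication, G2/M and mitosis, and the G1 regulators were not counted among them. The other 449 higher genes were in none of the 9 and had a median difference of 0.75, against 1.19 for the 138. Among these 449 were TROAP, a spindle-associated protein, at 2.35 and UBE2T, the ubiquitin-conjugating enzyme of the Fanconi pathway, at 2.31. Differences are on a log2(N/10 + 1) scale, N being the normalized TPM, on which changes of weakly expressed genes come out too small. Because the groups were selected on mitotic genes of the same cells, a higher mitotic gene here describes the groups and tests nothing.

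**Figure D2:**
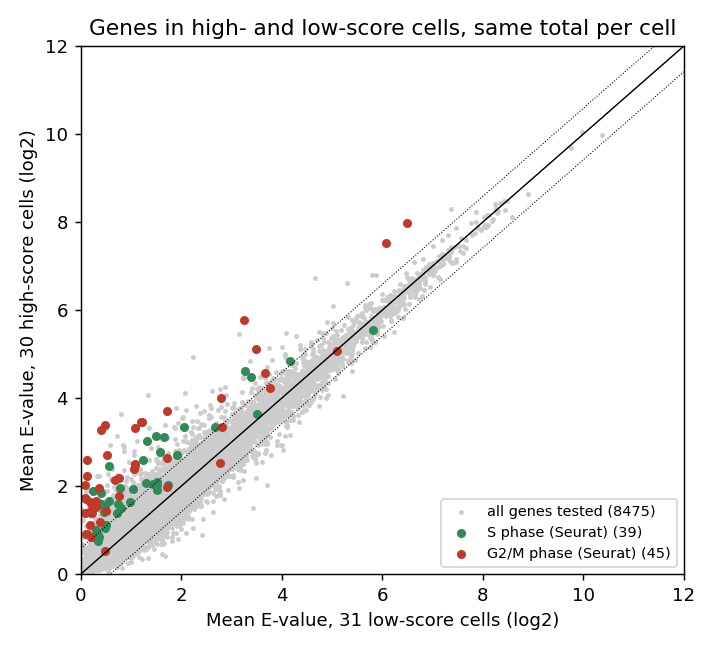
Mean E-value of 8475 genes (log2, same total per cell) in the 31 low-score cells (x axis) and the 30 high-score cells (y axis). Grey points are all genes, green the 39 S genes and red the 45 G2/M genes, the solid line marks equal means and the dotted lines a difference of log2 of 1.5. Most G2/M genes and many S genes lie above the upper dotted line, and these lists hold 68 of the 587 genes above it.

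The gene with the largest difference was a mitotic cyclin. Of the 20 mitotic cyclin and kinase genes compared, 14 were higher, 0 lower, and the median difference was 1.3. CCNB2, the cyclin B2 partner of CDK1, went from 0 through a median of 3.43 to 6.03 in the high-score cells and from 0 through 0 to 4.17 in the low-score cells, with detection in 27 of 30 and 7 of 31 cells. Its ranges overlapped, but the median low-score cell had none, and its difference in means was 2.90 (3.39 ± 1.98 against 0.49 ± 1.15), the largest of all genes. CDK1, the kinase that drives mitotic entry, had medians of 3.62 and 0, highest values of 7.07 and 5.65, and a difference of 2.24. PBK, a mitotic kinase, differed by 2.81 and was detected in 25 of 30 and 8 of 31 cells. CCNA2, the cyclin A2 of S and G2 phase, differed by 1.17 with means of 1.23 ± 1.64 and 0.06 ± 0.11, and its highest value in a low-score cell was 0.38. The control mean of CCNA2 was 2.49, so that the high-score cells stood between the low-score and the control cells. WEE1 and PLK4, an inhibitor of CDK1 and the kinase for centriole copying, were at the other end of the list, with differences of -0.33 and 0.10 that were inside the limit.

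Genes of chromosome structure and of the spindle were higher as groups. All 15 genes compared of the passenger complex, condensation and cytokinesis list were higher, with a median difference of 1.03. TOP2A, the topoisomerase that untangles sister chromatids, had a median of 3.40 and a highest value of 6.60 in the high-score cells against 0.03 and 3.22, and its difference was 2.87. At the same total per cell, the control mean of TOP2A, 2.43, lay below the 3.27 ± 1.99 of the high-score cells. Rescaling raised the high-score cells, whose median log2 total on the spike-in scale was -1.29 with the control median at 0. Gene means of high-score and control cells were not compared on the spike-in scale. BIRC5, the survivin subunit of the passenger complex, differed by 2.18. NCAPD3 and NCAPD2, subunits of the condensins that compact chromosomes, had the smallest differences of the list, 0.61 and 0.63, and were inside the limit on the spike-in scale at 0.49 and 0.45. Of 29 mitotic kinesin and spindle genes, 26 were higher and 0 lower, with a median of 1.31. PRC1, which bundles microtubules at the spindle midzone, differed by 2.74 (4.08 ± 2.07 against 1.33 ± 1.68), and NUSAP1, which binds spindle microtubules, by 2.26. NUMA1, a spindle pole protein that is also present in interphase nuclei, differed by -0.14.

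Centromere and kinetochore genes, which join chromosomes to the spindle, showed 26 of 35 higher and 0 lower, with a median of 1.02. NUF2, a subunit of the NDC80 complex that holds microtubules, was detected in 23 of 30 and 5 of 31 cells and differed by 2.48. CENPM and CENPW, parts of the inner kinetochore, differed by 2.84 and 2.41. ZWINT, which links checkpoint proteins to the kinetochore, differed by 2.29, and CENPF, a kinetochore protein made in G2, by 2.22. STRA13 and CENPV were at the other end, at -0.15 and -0.14. The list of the anaphase-promoting complex, checkpoint and cohesin release was split, with 9 of 23 genes higher, 0 lower and a median of 0.39. MAD2L1, the checkpoint protein that holds back CDC20, went from 0 through 5.21 to 6.60 in the high-score cells and from 0 through 3.05 to 4.76 in the low-score cells, a difference of 2.69. TRIP13, which remodels MAD2, differed by 1.74. ANAPC4 and CDC23, structural subunits of the complex, differed by -0.52 and -0.39, inside the limit.

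**Figure D3:**
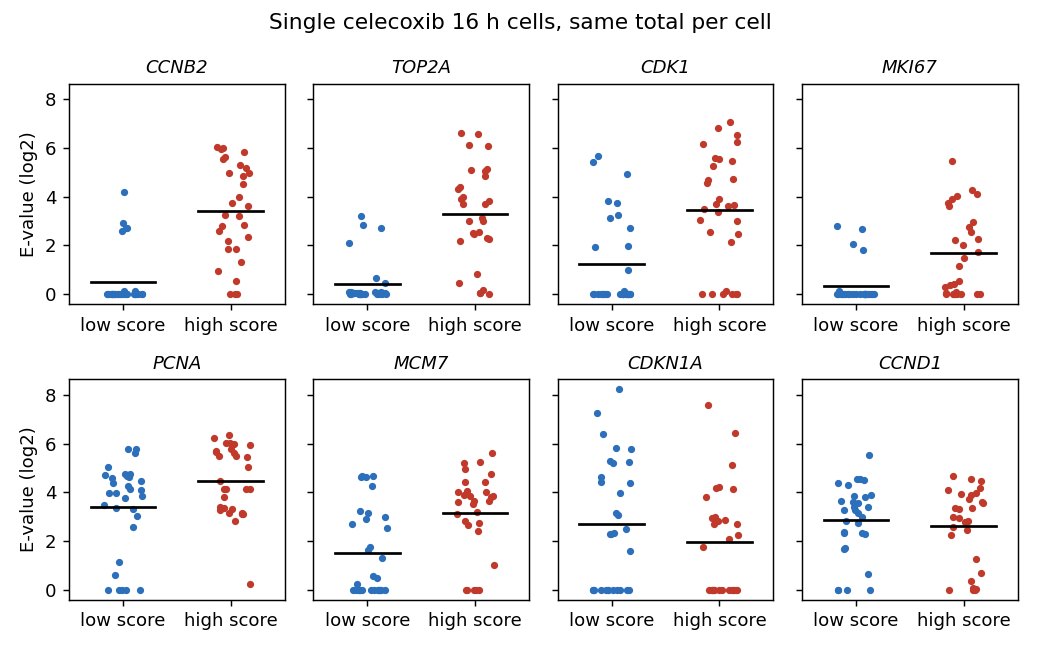
E-values (y axis, log2, same total per cell) of 8 genes in single celecoxib 16 h cells, with the 31 low-score cells in blue, the 30 high-score cells in red and horizontal bars at the means. CCNB2, TOP2A and MKI67 are at or near 0 in most low-score cells, CDK1 is at 0 in many of them, and PCNA and MCM7 overlap widely. CDKN1A and CCND1 have higher means in the low-score cells, with differences of -0.75, past log2 of 1.5, and -0.23, inside it.

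On the published S and G2/M lists of the Seurat package, the low-score cells were short of both kinds of transcript. Of 45 G2/M genes, the score genes left out, 39 were higher and 0 lower, with a median difference of 1.36, and of 39 S genes, 29 were higher and 0 lower, with a median of 0.77. When differences were taken within bins of genes detected and then averaged, the medians were 1.24 and 0.62. Without the 8 cells above the control median score, and with the cut where it was, the G2/M median was 0.85 and the S median 0.84. With the remaining cells cut again at their own median they were 0.74 and 0.75. The mean E-value of the G2/M list in a cell went from 1.22 through 2.15 to 4.65 in the high-score and from 0.65 through 1.12 to 2.06 in the low-score cells. That of the S list went from 0.94 through 2.02 to 3.90 and from 0.62 through 1.09 to 2.95. MKI67 differed by 1.36, with detection in 22 of 30 and 9 of 31 cells.

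Replication genes were also higher as groups. PCNA, the sliding clamp of the DNA polymerases, went from 0.25 through 4.30 to 6.36 in the high-score and from 0 through 3.97 to 5.80 in the low-score cells, a difference of 1.10, and it was detected in 30 of 30 and 26 of 31 cells. The medians of PCNA were close, and the gap in its means came with 5 low-score cells in which it was not detected. Of the MCM genes, which encode the replicative helicase, MCM7 differed by 1.65, MCM3 by 0.95, MCM4 by 0.89, MCM5 by 0.68 and MCM6 by 0.65, while MCM2 at 0.42 was inside the limit. On the spike-in scale MCM5 and MCM6 were inside it too, at 0.54 and 0.55. Of 21 MCM and origin genes 12 were higher and 0 lower (median 0.63), led beside MCM7 by ORC6, a subunit of the origin recognition complex, at 1.55. ORC4 and ORC3, other subunits, were at -0.49 and -0.38. Of 30 genes for DNA and deoxynucleotide synthesis, 20 were higher and 0 lower (median 0.86), led by TK1, the cytosolic thymidine kinase, at 2.10 and RFC4, a clamp loader subunit, at 1.71. FEN1, the flap endonuclease, was near the top of the S list at 1.70.

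The lists placed single cells as well. A cell was counted for a list when its mean was above the lower quartile of the control cells, 2.00 for G2/M and 2.28 for S. Of the 31 low-score cells, 27 were above neither limit (87.1%, exact 95% interval 70.2 to 96.4%), 3 were above that of S alone and 1 above both. Of the 30 high-score cells, 10 were above both, 7 above G2/M alone, 4 above S alone and 9 above neither (30.0%, 14.7 to 49.4%). The label of cycling cells therefore held in part, since 9 high-score cells had neither list at the level of most control cells. Among control cells, cut at their own median score of 5.63, 8 of 23 low-score cells were above neither limit (34.8%, 16.4 to 57.3%). Above the limit of S were 13 of 23. Both limits were set from the control cells, so that 34 of the 46 exceed each of them by construction. Their cut was also higher than the 2.15 of the celecoxib 16 h cells, and the control share is given as a description only. With the combination, 27 of 30 low-score cells were above neither, and after 2 h of celecoxib 24 of 32. After 16 and 48 h of paclitaxel the numbers were 21 of 28 and 23 of 27. A low-score group short of both lists was thus not particular to 16 h of celecoxib. The intervals cover counting error only, each condition is 1 sample, and no test between conditions was made.

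**Figure D4:**
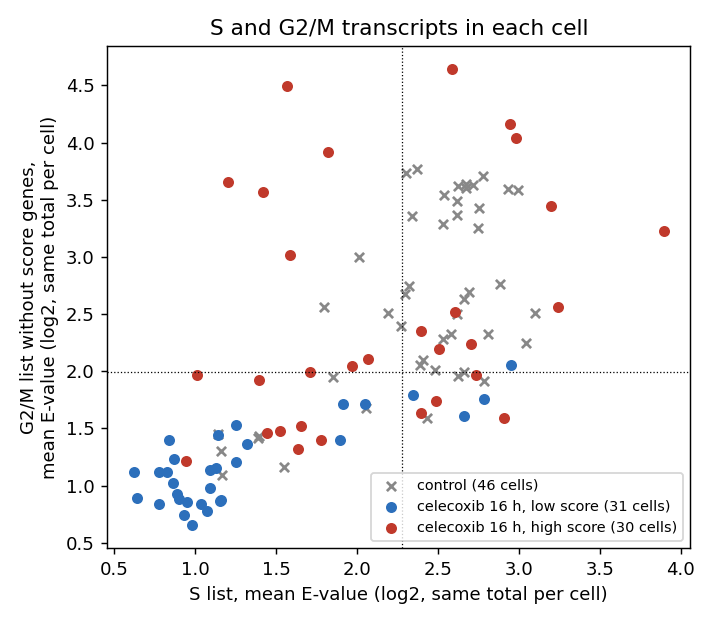
Mean E-value of the S list (x axis) and of the G2/M list without score genes (y axis), log2 at the same total per cell, for the 31 low-score (blue) and 30 high-score (red) celecoxib 16 h cells and the 46 control cells (grey crosses). Dotted lines are the control lower quartiles, 2.28 for S and 2.00 for G2/M. Of the low-score cells, 27 lie in the lower left field, while the high-score cells spread over all 4 fields.

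Across the 61 cells the score had Pearson's r of 0.94 (Spearman's rho 0.88) with the G2/M mean and 0.54 (0.66) with the S mean. Within the 31 low-score cells the score and the S mean had r of 0.62 (0.56), and within the 30 high-score cells 0.12 (0.10). These values share the library and the scaling of each cell and are given as a description. By Spearman's rho over the 61 cells, the genes most like the score were CCNB2 (0.82), TOP2A and PRC1 (0.79), PBK and NUF2 (0.78), MAD2L1 and CENPF (0.77), H2AFZ (0.74), and HMGB2 and CDCA8 (0.73). H2AFZ, the histone variant H2A.Z, was detected in every one of the 61 cells and ran from 6.37 through 8.41 to 9.21 in the high-score and from 5.47 through 7.55 to 8.41 in the low-score cells, a difference of 0.93. It is the most abundant of these 10 genes in the low-score cells, and its level there differed in amount rather than in detection. Of 18 histone variant and HMG genes 5 were higher and 0 lower (median 0.33), among them HMGB2 at 2.53 and HMGB3 at 1.10, which bend DNA.

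Promoters of the genes were searched for the elements printed above, in 300 bases around the RefSeq start, on both strands, for the 7035 of 8475 genes with an entry. TTTGAA was present in 29 of 39 G2/M genes (74.4%), 1 of 31 S genes (3.23%), 109 of 499 genes higher in the high-score cells (21.8%) and 18 of 227 genes lower (7.93%), against 9.47% of all genes compared and 15.4% of the 27305 promoters in the table. GGCGGGAA was present in 1 of 39 G2/M genes (2.56%) and 11 of 31 S genes (35.5%), against 5.61% of all genes compared and 3.18% of all promoters. CCAAT was common in both lists, at 69.2% and 71.0%, with 38.2% of all genes compared and 35.7% of all promoters. TTTGAA together with CCAAT, as in CDC20, CCNB2 and MKI67 above, was found for 59% of the G2/M and 3.23% of the S genes, with 4.18% of all genes compared and 6.08% of all promoters. The higher genes include 39 of the 45 G2/M genes compared, and their share with TTTGAA was not computed without these. A match says only that the letters are in the window, and binding was not measured.

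Regulators of G1 showed no common direction. Of 24 genes compared, 2 were higher and 1 lower, with a median of 0.02. CCND1 and CCNE1, the cyclins D1 and E1 of G1 and of the step into S, differed by -0.23 and -0.16 and were detected in 27 of 30 against 27 of 31 and in 21 against 20 cells. CDKN1A, the p53-induced inhibitor p21 of cyclin-dependent kinases, went from 0 through 1.92 to 7.58 in the high-score cells and from 0 through 2.34 to 8.23 in the low-score cells. The difference of CDKN1A was -0.75 at the same total and -0.50, inside the limit, on the spike-in scale, against SDs of 2.18 and 2.61, and the gene was detected in 16 of 30 and 19 of 31 cells and in 11 of 46 control cells. CDKN1B, the inhibitor p27, differed by 0.14 and MYC, a growth factor-induced transcription factor, by -0.14. E2F5 and CDKN2D, a repressive E2F and the inhibitor p19, were the higher genes, both at 0.62, and were inside the limit on the spike-in scale at 0.53 and 0.58.

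Stress and metabolism lists had no more than 3 genes past the limit in either direction. Over all genes compared, 6.93% were higher and 3.17% lower. These lists are short, and so few genes are not read as a result about a list. Among 22 p53 targets 0 were higher and 2 lower, CDKN1A and TIGAR, a phosphatase that lowers glycolytic flux, at -0.86. Of 25 genes of the integrated stress response 3 were higher, with a list median of 0.10. Among them were SHMT2 of mitochondrial serine use at 0.94 and XBP1 of the unfolded protein response at 0.66. XBP1 was inside the limit in 11 of the 21 alternatives described at the end, and its Spearman's rho with the score was 0.09. Of 25 sterol and fatty acid genes 3 were higher and 0 lower (list median 0.12). Of 21 heat shock genes 1 was higher and 2 lower, and HSPB1, the small heat shock protein HSP27, was at -1.01 (3.16 ± 1.46 against 4.17 ± 1.13). Of 15 immediate early genes, DUSP6, an ERK phosphatase, was the 1 that was higher, at 0.64, and 0 of 17 apoptosis genes passed the limit.

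Housekeeping complexes were close to even. Of 79 cytosolic ribosomal protein genes 0 passed the limit (median -0.01), as did 0 of 16 glycolysis genes (median -0.10). Of 76 nuclear OXPHOS subunit genes 0 were higher and 2 lower, ATP5C1 of ATP synthase at -0.74 and NDUFV3 of complex I at -0.59, and 19 were above 0. On the spike-in scale ATP5C1 and NDUFV3 were inside the limit, at -0.53 and -0.40. The OXPHOS median was -0.14 at the same total and 0.01 on the spike-in scale, so that its direction turned with the scaling. The medians of the ribosomal, glycolysis and proteasome lists turned as well, to 0.14, 0.02 and 0.07. Of 31 proteasome genes 1 was higher and 2 lower, with PSMD6 of the regulatory particle at -0.89 (median -0.08).

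**Figure D5:**
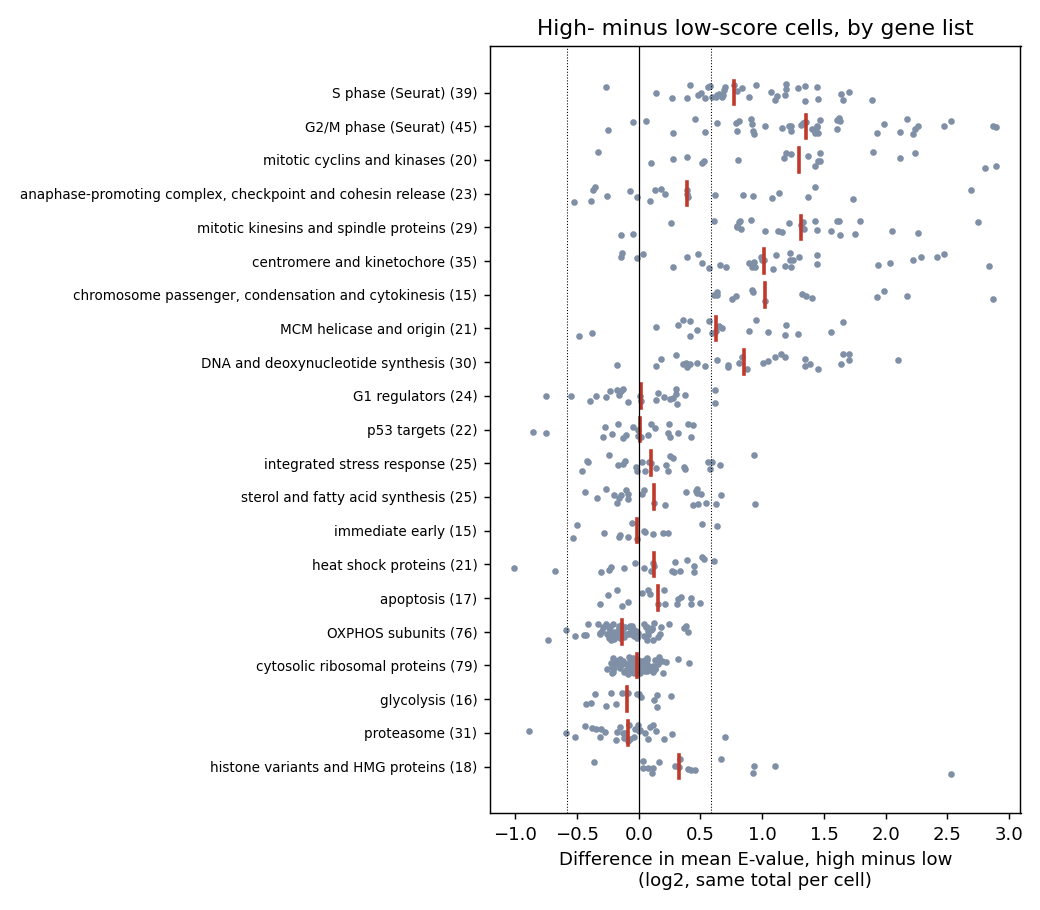
Differences in mean E-value, high minus low (x axis, log2, same total per cell), of the genes of 21 lists, with the number of genes compared in parentheses. Each point is a gene, red bars are list medians and dotted lines mark log2 of 1.5. The lists of S phase, replication, G2/M and mitosis lie to the right, with medians from 0.39 to 1.36. The G1 regulators (median 0.02) and the stress, metabolism and housekeeping lists lie around 0.

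The 269 lower genes, 3.17% of all genes compared, had smaller differences, and no list held more than 2 of them. The lists with 2 were the p53 targets (of 22 genes), heat shock (of 21), proteasome (of 31) and OXPHOS (of 76) lists. Counts this small are not read as a result about a list. TMEM134 ran from 0 through 2.79 to 4.55 in the high-score and from 0 through 4.01 to 6.26 in the low-score cells, with detection in 22 of 30 and 30 of 31 and a difference of -1.68. The levels overlapped over most of the range, and the control cells had a mean of 2.68. RGS3, which damps G-protein signalling, differed by -1.52, COMMD10 by -1.30, RNF113A, a spliceosome-associated ubiquitin ligase, by -1.22, SCFD1, of transport between endoplasmic reticulum and Golgi, by -1.20, and ZNF814, a zinc finger protein, by -1.19. RTFDC1, which acts at stalled replication forks, differed by -1.18, and DECR1, of mitochondrial fatty acid oxidation, by -1.17. HIST1H2BD, an H2B histone gene, differed by -1.26, and its reads may be shared with near-identical H2B genes, which the authors' RSEM step splits by estimate. By Spearman's rho the genes most opposed to the score were RGS3 (-0.57), SCFD1 and OGFOD1, a ribosomal protein hydroxylase (-0.52), and TMEM134 and UROS, of haem synthesis (-0.51).

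The same cut was made in the other 5 conditions at the median score of each, with no cell shared between conditions. Of the 587 higher genes, 276 (47.0%) were above 0 in all 5, against 10.8% of all genes compared, and of the 269 lower genes 19 (7.06%) were below 0 in all 5, against 5.44%. Of the 138 higher genes in a cell cycle list 123 (89.1%) were above 0 in all 5, and of the 449 in none 153 (34.1%). The 15 genes with the largest positive differences were above 0 in all 5 conditions. CCNB2 differed by 1.87 in control cells, 2.78 and 2.59 after 16 and 48 h of paclitaxel, 2.24 after 2 h of celecoxib and 2.29 with the combination. Of the 10 genes with the largest negative differences, COMMD10 and RTFDC1 were above 0 in 4 of the 5 conditions, and TMEM134 was at 1.11 after 16 h of paclitaxel and below 0 in the other 4.

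Fewer of the higher genes passed the limit among control cells than in any other condition, 174 (29.6%, with 7.45% of all genes), against 205 (34.9%, with 7.81%) and 220 (37.5%, with 6.71%) after 16 and 48 h of paclitaxel, 232 (39.5%, with 6.5%) after 2 h of celecoxib and 225 (38.3%, with 6.04%) with the combination. The 269 lower genes were under minus log2 of 1.5 in 13 cases (4.83%, with 1.51% of all genes) among control cells, in 12 (4.46%, with 2.04%) and 47 (17.5%, with 6.35%) after 16 and 48 h of paclitaxel, in 20 (7.43%, with 3.02%) after 2 h of celecoxib and in 31 (11.5%, with 3.4%) with the combination. The median difference of the G2/M list was 1.36 after 16 h of celecoxib and 1.38 in control cells, and lay between 0.96 and 1.60 elsewhere. The median difference of the S list was 0.77 after 16 h of celecoxib, 0.21 in control cells, 0.41 and 0.84 after 16 and 48 h of paclitaxel, 0.64 after 2 h of celecoxib and 0.75 with the combination. Each condition is 1 sample, and whether these medians differ between conditions was not tested.

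Markers of other cells were few in the table, to which the authors admitted a gene only if over 30% of cells in some condition had it. Of 12 immune markers LYZ was present, with means of 0.19 and 0.17. Of 10 fibroblast and endothelial markers COL1A2, COL3A1 and LUM were present, and LUM, detected in 6 of 30 high-score and 12 of 31 low-score cells (means 0.56 and 1.55), was below the detection limit of the comparison. Of 11 epithelial and ovarian lineage markers KRT18 and VIM were present, KRT18 in 11 and 5 and VIM in 23 and 21 cells. The other markers of these lists were not analysed here.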

How the data were processed

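Single cells were captured on the Fluidigm C1 system and sequenced by Smart-seq2 with 3 spike-in RNAs. The authors trimmed reads with Trim Galore, used RSEM 1.3.0 with Bowtie2 to estimate TPM over the transcripts of GENCODE 28 (hg38), divided TPM by the highest spike-in of the cell, and removed poor cells (338 of 372 kept, and 61 of 67 after 16 h of celecoxib) and genes detected in 30% of cells or fewer in every condition. The deposited values are log2 E-values, log2(N/10 + 1), for 9664 genes. The authors' state per cell was not used.

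From the E-values, N was recovered and each cell was rescaled to the median total of the 338 cells. Celecoxib 16 h cells have low totals, so this raises their E-values. Groups, means and differences (high minus low) were then computed in Python 3.11.15 with numpy 2.4.6, pandas 2.3.3 and scipy 1.17.1, and plots were drawn with matplotlib 3.10.9. With 1 sample per condition no test was made, and a gene was counted past log2 of 1.5. Depth in reads is unknown, and doublets were not called, for want of counts. Steps were tested on simulated data.

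The members and all 24 gene lists, among them the Seurat 5.3.0 phase genes, were chosen with earlier results of these data known. Genes named are the 15 largest positive and 10 largest negative differences, the 2 at each end of every list, the score genes, a set of always named cycle genes (CCNE2 was not analysed here), and the 10 highest and 5 lowest by Spearman's rho with the score. LUM and KRT18 were named after their values were seen. Promoters are from RefSeq, for score genes and named cycle genes, and UBE2C, HMGB2, BIRC5, MCM4 and MCM5 had no entry. Symbols are those of the file. Some genes that the rule names are not reported here. Alternatives changed the scaling, pseudocount, mean, filter, limit, score genes, cut, depth and cells.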

Additional observations from a re-analysis of the deposited data

How the results depend on the processing

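No paired analysis was possible because each condition is 1 sample and the result comes from no test. Of 114 named genes, 64 were past the limit, and 37 of these stayed past it in all 21 alternatives, 18 planned and 3 chosen after seeing the data, among them the 15 largest positive and 10 largest negative differences. In 0 cases did a gene past the limit change sign. Results that moved by over 1.5 times follow. On the spike-in scale 66 genes were lower. With a pseudocount of 1, 1779 genes were higher and 964 lower, and the G2/M and S medians were 2.37 and 1.46. Of these higher genes 467 were above 0 in all other conditions, a smaller share (26.3%, with 12.8% of all genes) than the 47.0% of the main result. A ratio of linear means gave 444 lower genes. A limit of log2 of 2 gave 174 higher and 24 lower, with 151 of the higher above 0 in all other conditions (86.8%, with 10.8% of all genes). The upper against the lower 20 cells of the score gave 1024 higher and 591 lower, an S median of 1.21, and differences of 0.49 in log2 total and 804.5 in genes detected. Without the 12 cells nearest the cut, 425 genes were lower and the genes detected differed by 773. Rescaling to the median total of the 61 cells (added) gave 333 higher and 136 lower. Without cells above the control median score and with the cut kept (added) the G2/M median was 0.85 and the S median 0.84. With those cells left out and the rest cut again (added) the G2/M median was 0.74, the S median 0.75, and 687 genes were higher and 315 lower. These alternatives change the cells, scale or limit by construction, and further causes were not tested. Weakly expressed genes are limited most by the unknown depth.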
